A study of Mus musculus with 4 samples.

Results

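The genes described here encode the machinery that burns fatty acids: 34 mouse genes for the enzymes, carriers and electron acceptors of fatty acid oxidation in mitochondria and peroxisomes, together with Ppara, the receptor that controls many of them in liver. They were chosen by name for what they do and not by their level, and all 34 symbols were found among the 16706 genes of the deposited matrix. Their unique molecular identifiers (UMIs, which count captured RNA molecules) were summed by nephron segment, by leukocyte class and by library in total kidney cells profiled by droplet single-cell RNA sequencing of 3′ ends.

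The mice were male C57Bl/6, aged 9 weeks, and every group carried the genotype Pax2.rtTA;TetO.Cre;R26.Confetti, an inducible Cre under a Pax2 driver with a multicolour reporter; the labels do not say whether it was induced. In every group nephritis was also raised with an anti-GBM serum, that is, antibodies to the basement membrane of the glomerulus, so there was no healthy kidney to compare with. Treatment began 1 day after the serum and the kidneys were taken on day 7. The groups were panobinostat at 15 mg/kg and givinostat at 10 mg/kg, which are both histone deacetylase (HDAC) inhibitors, ruxolitinib at 60 mg/kg, a Janus kinase inhibitor, and vehicle (distilled water). Each group had 1 library; the labels give 2 animals per group and do not say whether they were pooled. The vehicle library was recognised as the only one whose name carried no drug. With 1 library per group no difference between groups could be tested, and all intervals below are 95% intervals that cover counting error only.

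Proximal tubule cells reabsorb most of the filtered load and draw their ATP mainly from fatty acids. A fatty acid is joined to coenzyme A, passed across the mitochondrial membranes as a carnitine ester, and shortened by a repeating cycle of dehydrogenation, hydration, a further dehydrogenation and thiolysis, with electrons handed to the respiratory chain through the electron transfer flavoprotein. Peroxisomes run a parallel set of enzymes on very long, branched and dicarboxylic chains.

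In all, 15777 cells were kept, 4396, 3472 and 3979 in the panobinostat, givinostat and ruxolitinib libraries and 3930 in the vehicle library, with 36861583 to 45075309 UMIs per library. Of 29 clusters 25 were named from marker genes. Proximal tubule-like cells, in 7 clusters, numbered 2527, 1200, 1760 and 1798 in the panobinostat, givinostat, ruxolitinib and vehicle libraries, and all 12 markers of that segment were above 0 in each. Their median mitochondrial share lay between 17.7% and 18.7% in the 4 libraries. Counts are given per 1000000 UMIs of the same class and library (CPM). They are counts of 3′ tags and were not divided by transcript length, so an order of levels among genes is an order of tags. In 19 cases 1 barcode sequence occurred in more than 1 library, which touched 38 cells.

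The 34 genes together supplied about 1% of the UMIs of a proximal tubule-like cell. Their summed level was 11021, 10525 and 9538 CPM in the panobinostat, givinostat and ruxolitinib libraries, against 10274 CPM in the vehicle library. The median cell gave them 1.06%, 1.04% and 0.911% of its UMIs in the panobinostat, givinostat and ruxolitinib libraries and 1.02% in the vehicle library, and cells spread widely around it, from the 5th to the 95th percentile of vehicle cells between 0.534% and 1.53%. Every member had at least 10 CPM in proximal tubule-like cells, so none was lost to the filter on low values there. In loop of Henle-like cells the sum was 4591, 3842 and 4021 CPM in the panobinostat, givinostat and ruxolitinib libraries, against 4536 CPM in the vehicle library. In T-like cells it was 1629, 1622 and 1585 CPM in the panobinostat, givinostat and ruxolitinib libraries, against 1515 CPM in the vehicle library. The ruxolitinib sum was the lowest of the 4 in proximal tubule-like cells, and the panobinostat sum the highest in all 3 classes. In loop of Henle-like and T-like cells the sums include Acsm2, whose counts there are read below as background from broken tubule cells. In T-like cells Acsm2 alone had 126, 127 and 73.6 CPM in the panobinostat, givinostat and ruxolitinib libraries, against 85.5 CPM in the vehicle library. The order of the sums in those classes is therefore not read as one of the members as a whole.

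Among the enzymes that activate and carry fatty acids, the medium-chain acyl-CoA synthetase Acsm2 had the highest level of all members, at 2644, 3063 and 2210.0 CPM in the panobinostat, givinostat and ruxolitinib libraries, against 2396 CPM in the vehicle library. The genes next to it on chromosome 7, Acsm3 and Acsm1, had lower levels. Acsm3 had 306 CPM in the panobinostat library, 327 CPM in the givinostat library and 188 CPM in the ruxolitinib library, against 225 CPM in vehicle, so that both HDAC inhibitor libraries lay above vehicle and ruxolitinib below it. Acsm1 had 75.9 CPM under panobinostat, 67.5 CPM under givinostat, 65.8 CPM under ruxolitinib and 58.2 CPM under vehicle, lowest under vehicle. Slc25a20, the carrier that exchanges acylcarnitine for carnitine across the inner mitochondrial membrane, was highest in the vehicle library: it had 59.1, 63.6 and 62.0 CPM in the panobinostat, givinostat and ruxolitinib libraries, against 76.9 CPM in the vehicle library. Crot, which moves medium chains from peroxisomes on to carnitine, had 322 CPM in the panobinostat library, 364 CPM in the givinostat library and 319 CPM in the ruxolitinib library, against 303 CPM in vehicle. The long-chain synthetase Acsl1 and the carnitine transferases Cpt2 and Crat had between 54.4 and 104 CPM.

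The first step of the cycle was represented by dehydrogenases of graded chain length. Acadm, for medium chains, led them with 552, 486 and 476 CPM in the panobinostat, givinostat and ruxolitinib libraries, against 489 CPM in the vehicle library. Acadl, for long chains, had 311 CPM under panobinostat, 274 CPM under givinostat, 275 CPM under ruxolitinib and 313 CPM under vehicle, and Acads, for short chains, had 182, 135 and 129 CPM in the panobinostat, givinostat and ruxolitinib libraries, against 162 CPM in the vehicle library. Both were lower in the givinostat and ruxolitinib libraries than in the panobinostat and vehicle libraries. Acadvl, for very long chains, ranged from 125 to 150.0 CPM. The beta subunit of the electron transfer flavoprotein, Etfb, had 782 CPM in the panobinostat library, 612 CPM in the givinostat library and 678 CPM in the ruxolitinib library, against 741 CPM in vehicle, and its alpha subunit Etfa had 307 CPM under panobinostat, 291 CPM under givinostat, 292 CPM under ruxolitinib and 269 CPM under vehicle. The libraries were ordered differently for these subunits: givinostat and ruxolitinib were the lowest libraries for Etfb, and vehicle the lowest for Etfa. Etfdh, which hands the electrons on to ubiquinone, ranged from 80.2 to 92.1 CPM.

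Later steps of the mitochondrial cycle held the member with the largest departure from vehicle, Acaa2, and one that was highest under panobinostat, Acat1. The thiolase Acaa2 had 275, 145 and 197 CPM in the panobinostat, givinostat and ruxolitinib libraries, against 234 CPM in the vehicle library, with givinostat well below the rest. Acat1, the thiolase of acetoacetyl-CoA, had 464 CPM in the panobinostat library, 364 CPM in the givinostat library and 351 CPM in the ruxolitinib library, against 349 CPM in vehicle, with panobinostat above the other libraries. Hadh, the dehydrogenase of short hydroxyacyl chains, had 449 CPM under panobinostat, 406 CPM under givinostat, 395 CPM under ruxolitinib and 387 CPM under vehicle. The hydratase Echs1 had 199, 167 and 185 CPM in the panobinostat, givinostat and ruxolitinib libraries, against 171 CPM in the vehicle library. Hadha, the alpha subunit of the trifunctional protein that works on long chains, had 98.5 CPM under panobinostat, 93.7 CPM under givinostat, 99.1 CPM under ruxolitinib and 117 CPM under vehicle, and its beta subunit Hadhb ranged from 112 to 118 CPM. Vehicle was the highest library for both subunits.

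Unsaturated chains need isomerases and a reductase besides. Ech1, a dienoyl-CoA isomerase, had 536, 405 and 406 CPM in the panobinostat, givinostat and ruxolitinib libraries, against 514 CPM in the vehicle library. Eci1, the mitochondrial enoyl-CoA isomerase, had 157 CPM in the panobinostat library, 101 CPM in the givinostat library and 125 CPM in the ruxolitinib library, against 154 CPM in vehicle. For both, givinostat and ruxolitinib lay below panobinostat and vehicle. Eci2, the enoyl-CoA isomerase also found in peroxisomes, had 117 CPM under panobinostat, 120.2 CPM under givinostat, 104 CPM under ruxolitinib and 132 CPM under vehicle, and was highest under vehicle. Decr1, the mitochondrial dienoyl-CoA reductase, ranged from 144 to 181 CPM.

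On the peroxisomal side Scp2, whose locus encodes a sterol carrier and a thiolase, had 1178, 1082 and 1078 CPM in the panobinostat, givinostat and ruxolitinib libraries, against 1038 CPM in the vehicle library. The thiolase Acaa1b had 349.6 CPM in the panobinostat library, 353 CPM in the givinostat library and 352 CPM in the ruxolitinib library, against 419 CPM in vehicle, and its paralogue Acaa1a had 92.9 CPM under panobinostat, 86.8 CPM under givinostat, 101 CPM under ruxolitinib and 93.7 CPM under vehicle. Vehicle was the highest library for Acaa1b, while ruxolitinib was the highest for Acaa1a. Abcd3, the membrane transporter that brings acyl-CoA into peroxisomes, had 259.6, 321 and 269 CPM in the panobinostat, givinostat and ruxolitinib libraries, against 312 CPM in the vehicle library. Pex11a, which takes part in peroxisome division, had 68.1 CPM in the panobinostat library, 64.8 CPM in the givinostat library and 62.5 CPM in the ruxolitinib library, against 81.8 CPM in vehicle, again highest under vehicle. Ehhadh, a bifunctional enzyme, ranged from 209.6 to 257 CPM, Hsd17b4, the other bifunctional enzyme, from 117 to 129 CPM, and the reductase Decr2 from 36.1 to 39.7 CPM. The receptor gene Ppara had 49.1 CPM under panobinostat, 40.1 CPM under givinostat, 59.3 CPM under ruxolitinib and 52.6 CPM under vehicle, with givinostat lowest.

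**Figure D1:**
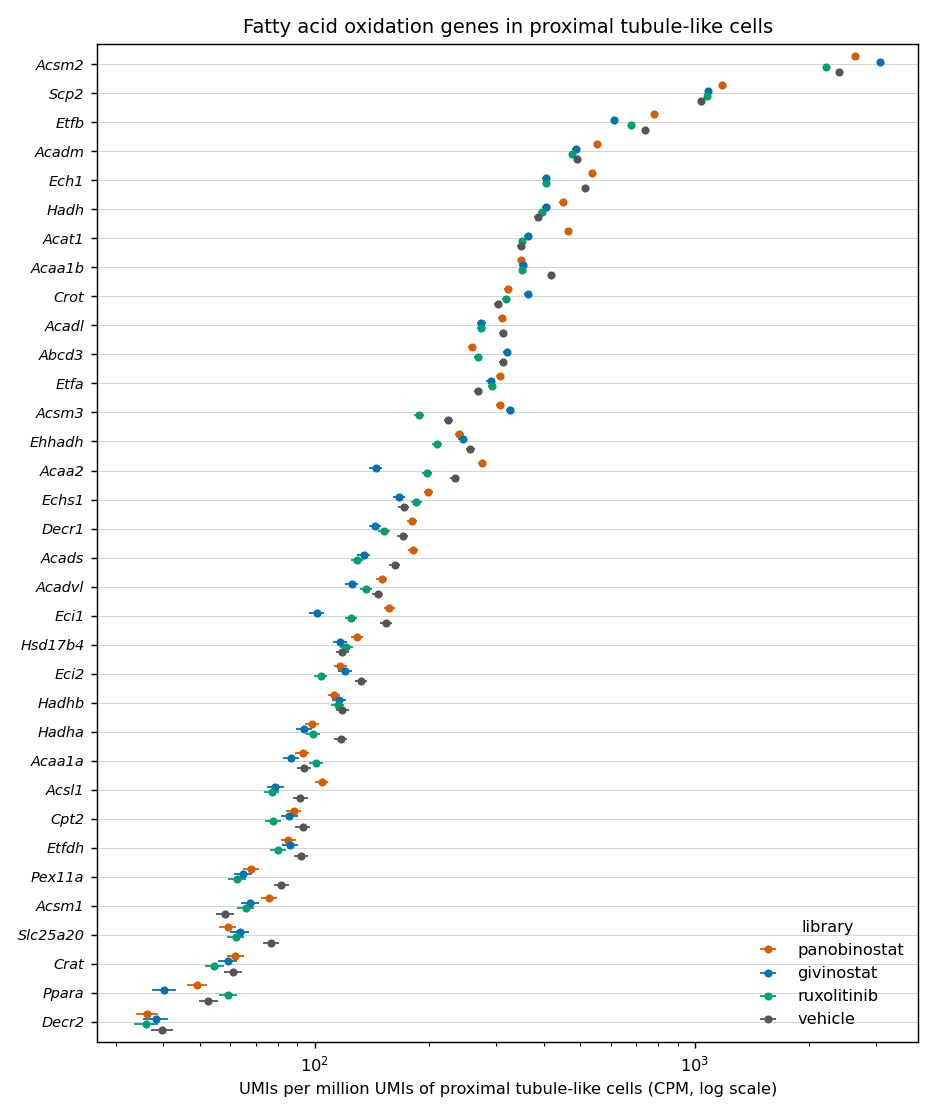
Level of each of the 34 genes in proximal tubule-like cells, in CPM on a log scale, with 1 point per library and bars for the 95% Poisson interval, which covers counting error only. Genes run from Acsm2 at the top, between 2210.0 and 3063 CPM, to Decr2 at the bottom, between 36.1 and 39.7 CPM, and the blue givinostat point stands apart to the left for Acaa2 and Eci1.

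Within the proximal tubule some members were far from evenly spread, and for the steepest of them the contrast between its first and last stretch was larger than that between any drug and vehicle. The tubule runs from the S1 segment, just below the glomerulus, through S2 to S3 in the outer medulla. An S1-like cluster held 875, 307, 724 and 561 cells of the panobinostat, givinostat, ruxolitinib and vehicle libraries, and an S3-like cluster, named from markers such as Slc7a13, held 63, 40, 74 and 59; the givinostat S3-like cells, under 50, were not used. The other 4 parts were called cluster 2, cluster 3, cluster 8 and the part with stress genes, which was led by Pdk4, Osgin1 and Angptl4. Clusters were built from the same cells, so these levels describe the parts and are not tested; Acsm3, the only member among the 2000 variable genes, was left out when clustering.

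Of the 34 genes 5 were at least 2-fold higher in S3-like than in S1-like cells in all 3 libraries compared, and 4 were at least 2-fold lower. The share over all genes is not given here, so the counts in this comparison are not read as particular to the members. Values follow for the panobinostat, ruxolitinib and vehicle libraries in that order. The steepest was Acsm3, with 1248, 1009 and 975 CPM in S3-like cells, against 43.1, 19.9 and 21.7 CPM in S1-like cells of the same libraries, ratios of 28.9 to 50.8. Crot had 1179, 1026 and 882 CPM in S3-like cells, against 145, 151 and 128 CPM in S1-like cells of the same libraries, ratios of 6.81 to 8.13. Acadm had 2396, 1763 and 2040.1 CPM in S3-like cells, against 373, 354 and 312 CPM in S1-like cells of the same libraries, ratios of 4.98 to 6.55. All 3 act on medium-length chains, but the medium-chain synthetase Acsm2 and its neighbour Acsm1 were not among the 5. In S3-like cells Acsm2 had 1222, 1021 and 1018 CPM, against 2644, 2210.0 and 2396 CPM in all proximal tubule-like cells. Acsm1 had 64.8, 34.8 and 34.2 CPM there, against 75.9, 65.8 and 58.2 CPM. Acat1 was 2.40 to 2.70 times and Ehhadh 2.46 to 3.35 times as high in S3-like cells. The opposite slope was found for the mitochondrial thiolase Acaa2, with 24.3, 9.50 and 14.3 CPM in S3-like cells, against 426, 299 and 379.5 CPM in S1-like cells of the same libraries, ratios of 0.0318 to 0.0570. Acsl1 had 11.3, 15.8 and 14.3 CPM in S3-like cells, against 158, 104 and 137 CPM in S1-like cells of the same libraries, ratios of 0.0717 to 0.153. Ppara and Decr2 also sloped that way, with ratios of 0.232 to 0.350 and 0.225 to 0.460. The other 25 members differed by less than 2-fold in at least 1 of these libraries. In all, 14 of 34 were above and 13 below S1 in every library compared.

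The parts between followed the same gradient for some members and not for others. Acsm3 averaged 29.6 CPM over the 4 libraries in S1-like cells and 446 CPM in cluster 3. Ppara had 60.2, 63.4 and 76.2 CPM in the panobinostat, givinostat and ruxolitinib libraries, against 73.9 CPM in the vehicle library, in S1-like cells, and 19.3, 12.4 and 26.9 CPM in the panobinostat, givinostat and ruxolitinib libraries, against 21.4 CPM in the vehicle library, in cluster 3, so that the parts did not overlap. Slc25a20 did not follow it: its highest mean, 100.3 CPM, was in the part with stress genes, against 47.6 CPM in S1-like cells and 37.8 CPM in cluster 2. Acaa1b averaged 211 CPM in S1-like cells and 441 to 471 CPM in the 4 parts other than S1-like and S3-like.

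**Figure D2:**
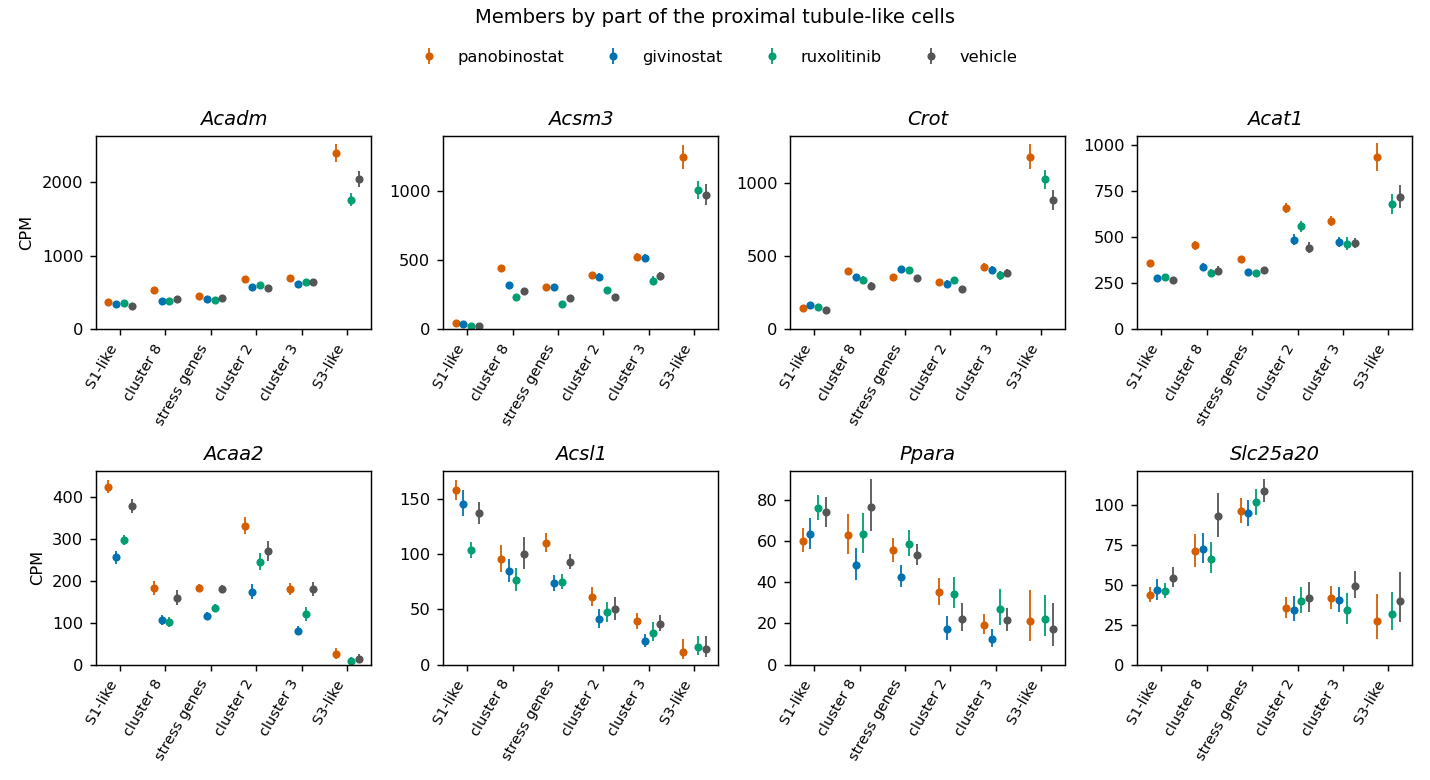
Level (CPM) of 8 members in the 6 parts of the proximal tubule-like cells, 1 point per library with 95% Poisson intervals for counting error; givinostat S3-like cells are absent, with under 50 cells. Acadm, Acsm3, Crot and Acat1 climb towards S3-like cells, where Acsm3 reaches 1248 CPM in the panobinostat library, while Acaa2, Acsl1 and Ppara decline and Slc25a20 peaks in the part with stress genes.

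Outside the proximal tubule the members divided into broad and narrow genes. Each class is given below as the mean over the 4 libraries with the lowest and highest library. The trifunctional protein was higher beyond the proximal tubule than in it: Hadha had 164 CPM (lowest 149.7, highest 186) in loop of Henle-like cells and 163 CPM (lowest 156, highest 175) in collecting duct-like cells, against 102 CPM (lowest 93.7, highest 117) in proximal tubule-like cells. Hadhb had 186 CPM (lowest 169, highest 198) in loop of Henle-like and 203 CPM (lowest 183, highest 228) in collecting duct-like cells, against 115 CPM (lowest 112, highest 118) in proximal tubule-like cells. For both genes the lowest of these distal values exceeded the highest proximal one. Acsl1 and Acadl were also higher in the loop, with 137 CPM (lowest 119, highest 169.9) against 87.9 CPM (lowest 77.0, highest 104) for Acsl1 and 353 CPM (lowest 315, highest 385) against 293 CPM (lowest 274, highest 313) for Acadl in proximal tubule-like cells; no library of the loop fell below any of the proximal tubule for either gene.

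At the other end were 4 genes of which little was counted outside the proximal tubule. In loop of Henle-like cells Acsm2 had 344, 82.9 and 89.6 CPM in the panobinostat, givinostat and ruxolitinib libraries, against 222 CPM in the vehicle library, Acaa1b averaged 28.1 CPM, Acsm3 14.7 CPM and Acsm1 4.67 CPM, which is 5.61% to 7.62% of their proximal tubule level. RNA set free from broken tubule cells enters every droplet, so these values were read beside 11 genes taken as made by the proximal tubule alone, such as Slc34a1 and Lrp2. Their median level in loop of Henle-like cells was 11.6%, 2.91% and 3.54% of the proximal tubule level in the panobinostat, givinostat and ruxolitinib libraries and 7.45% in the vehicle library. Acsm1, Acsm2 and Acsm3 were not above the highest of those genes in any library, nor was Acaa1b in any but the givinostat library. Those counts were read as background, apart from that of Acaa1b in the givinostat library. The other 30 members were above that background in loop of Henle-like cells of every library.

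**Figure D3:**
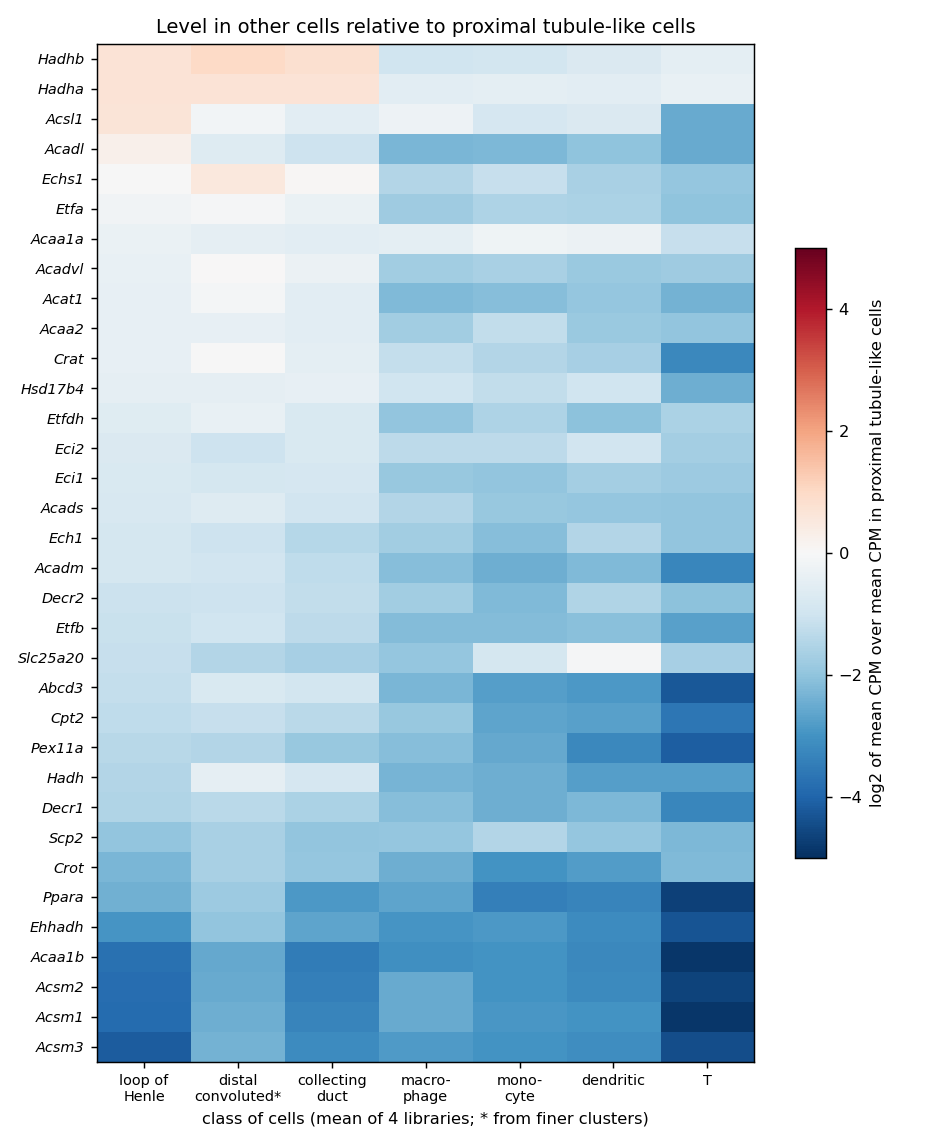
Log2 of the mean level over 4 libraries in other cells divided by that in proximal tubule-like cells, 1 row per gene and 1 column per class; red is higher than in proximal tubule-like cells and blue lower. Hadhb, Hadha and Acsl1 at the top are red in the loop of Henle, and Acaa1b and the 3 Acsm genes at the bottom are the deepest blue. They were not above the background of free tubule RNA there, except Acaa1b in the givinostat library.

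The narrow genes also stood apart in promoter sequence, which the choice of members did not use. Promoter windows from RefSeq (GRCm38.p6), of which the 250 bases before the start were read, were matched for 29 of the 34 members. The following sequences are shown because they contrast 3 of the narrow genes with the pair whose level in the loop of Henle was highest relative to its own level in the proximal tubule. They run 5′ to 3′ on the strand of the gene, with CG dinucleotides in capitals, lie upstream of protein-coding genes and overlap no annotated exon of another gene. Acsm2 lies at chr7:119554090-119554339 (+ strand), Acsm3 at chr7:119760673-119760922 (+ strand) and Acaa1b at chr9:119157094-119157343 (- strand). Hadha and Hadhb are transcribed away from each other, from starts 85 bases apart, and the whole stretch between those starts, chr5:30155163-30155247, is given on the + strand.
Acsm2: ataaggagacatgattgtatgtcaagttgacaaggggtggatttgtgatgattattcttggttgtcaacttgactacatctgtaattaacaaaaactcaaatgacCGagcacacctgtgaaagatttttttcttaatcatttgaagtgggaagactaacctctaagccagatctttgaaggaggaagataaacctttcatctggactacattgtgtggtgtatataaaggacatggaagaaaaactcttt
Acsm3: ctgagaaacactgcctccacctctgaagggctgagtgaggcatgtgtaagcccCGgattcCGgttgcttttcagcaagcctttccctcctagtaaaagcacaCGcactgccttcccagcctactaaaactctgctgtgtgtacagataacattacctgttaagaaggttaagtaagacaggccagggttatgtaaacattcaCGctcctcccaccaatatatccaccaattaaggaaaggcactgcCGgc
Acaa1b: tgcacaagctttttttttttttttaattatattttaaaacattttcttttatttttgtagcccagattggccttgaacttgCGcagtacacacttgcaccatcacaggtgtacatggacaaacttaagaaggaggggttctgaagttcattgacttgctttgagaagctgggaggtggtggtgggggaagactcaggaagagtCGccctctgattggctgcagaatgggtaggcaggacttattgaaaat
Hadha and Hadhb: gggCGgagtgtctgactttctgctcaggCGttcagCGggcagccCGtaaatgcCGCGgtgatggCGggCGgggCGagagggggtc

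The 250 bases before Acsm2 held 1 CG dinucleotide and a GC content of 36.0%, those before Acsm3 held 5 and those before Acaa1b held 2. The 85 bases shared by Hadha and Hadhb held 9 and a GC content of 69.4%. Counting the window with most CG where a gene has several, Acsm1 had 1, Acaa1b 2, Acsm2 3 and Acsm3 5. The other 25 members had 8 to 35. Below a limit of 6, which is the median over all 32851 windows and was set with the values in view, lay 49.6% of all windows and 13.8% of members.

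Members below that limit had a median loop of Henle level of 7.07% of the proximal tubule level and a median T-like level of 3.72%. Those at or above it had 54.9% and 24.3%. The members below it are Acsm1, Acaa1b, Acsm2 and Acsm3, the narrow genes already named for their low loop levels. Their loop median therefore restates that choice, and most of their loop counts were read as background. The same holds for most of their T-like counts. There Acaa1b and Acsm2 were not above the highest free RNA gene in any library, nor were Acsm1 and Acsm3 in any but the ruxolitinib library. The same genes enter the rho values that follow. Over the 29 genes, which share libraries and base composition, Spearman's rho between CG count and relative level was 0.49 for the loop and 0.21 for T-like cells. It was no rule for single genes: Ehhadh with 12 CG, Ppara with 27 and Crot with 25 reached 12.9%, 18.7% and 20.3% of the proximal level in the loop. The 3 Acsm genes are also neighbours, within 233174 bases of chromosome 7, so they are not independent examples. Motifs were searched on both strands in the whole RefSeq windows of 300 bases, 32 windows for the 29 members, and windows were not matched on base composition. A paired receptor motif of the PPAR kind, written DR1 and made of a pair of AGGTCA copies with 1 base between them, was in 0 of the 32 and in 0.0396% of all windows. A single AGGTCA, which that motif contains, was in 5 of the 32 (15.6%, of Acadm, Acadvl, Acsm1, Echs1 and Scp2), against 16.3% of all windows. The looser AGGNCA, which includes AGGTCA, was in 26 of the 32 (81.2%), against 57.2% of all windows.

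**Figure D4:**
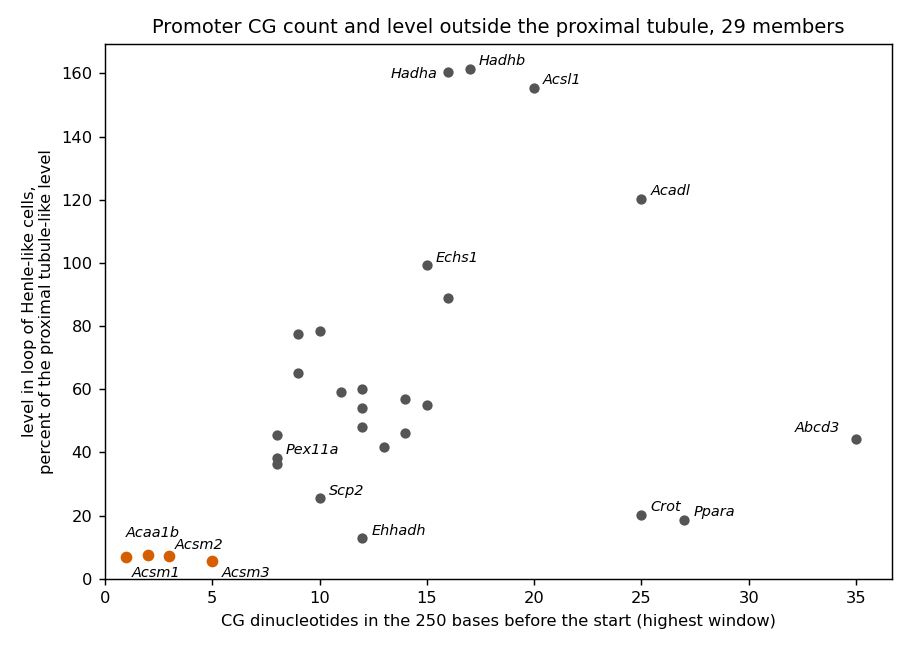
Number of CG dinucleotides in the 250 bases before the start (window with most) against the level in loop of Henle-like cells as a percent of the proximal tubule-like level, 1 point per gene for 29 members, with the 4 below 6 CG in orange. The orange points reach at most 7.62%, while Hadhb reaches 162% and Ppara, with 27 CG, reaches 18.7%.

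The next comparisons asked how far each drug library departed from vehicle in proximal tubule-like cells. All 3 share the vehicle library, so an unusual vehicle value enters each of them. Ratios were taken on log2(CPM + 5), and a member was counted as higher where its log2 ratio was at least 0.32, which is 25% above vehicle, and as lower where it was at most -0.32, which is 20% below. No ratio of a member reached 1.5-fold in the panobinostat or ruxolitinib library. In the givinostat library those of Acaa2 and Eci1 did, and on log2(CPM + 5) that of Acaa2 alone.

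With panobinostat, 3 members were higher (Acat1, Acsm1 and Acsm3) and 1 lower (Slc25a20) of 34, where 1.90% of all genes tested were higher and 3.48% lower. The ratio to vehicle was 1.36 (95% interval 1.31 to 1.42) for Acsm3, 1.33 (95% interval 1.29 to 1.37) for Acat1, 1.30 (95% interval 1.21 to 1.40) for Acsm1 and 0.769 (95% interval 0.715 to 0.826) for Slc25a20. In all, 20 members lay above vehicle and 14 below, with a median log2 ratio of 0.05 against 0.01 over all genes. Acat1 was above vehicle in all 6 parts of the proximal tubule, with ratios of 1.18 to 1.49, and Acsm3 likewise with 1.28 to 1.99. Slc25a20 was below vehicle in all 6, with 0.689 to 0.884. Giving each part equal weight brought its log2 ratio to -0.27, short of that limit.

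With givinostat, 2 members were higher (Acsm2 and Acsm3) and 4 lower (Acaa2, Eci1, Ech1 and Ppara), against 6.97% and 3.28% of all genes. Acaa2 had the largest departure of any member, 0.620 (95% interval 0.591 to 0.650), and was below vehicle in all 5 parts compared, with ratios of 0.447 to 0.676. Eci1 stood at 0.658 (95% interval 0.622 to 0.697) and Ech1 at 0.788 (95% interval 0.765 to 0.812), below vehicle in all 5 parts as well, with 0.576 to 0.709 and 0.669 to 0.850. Ppara was at 0.763 (95% interval 0.694 to 0.838). On the other side Acsm3 was at 1.45 (95% interval 1.40 to 1.51) and above vehicle in all 5 parts, with 1.15 to 1.61, and Acsm2 was at 1.28 (95% interval 1.26 to 1.29), with 1.17 to 1.32. Of the 34 members 9 lay above vehicle and 25 below, and their median log2 ratio was -0.10 where that of all genes was 0.06. When libraries were scaled by TMM factors rather than by plain totals, 1 member was higher and 11 lower, where 2.82% and 6.94% of all genes were, with 5 above vehicle and 29 below; Acsm2 then lay at 0.26 on the log2 scale, within the limit.

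With ruxolitinib none was higher and 3 were lower (Pex11a, Eci2 and Ech1), against 9.89% and 2.30% of all genes. Their ratios were 0.763 (95% interval 0.710 to 0.820) for Pex11a, 0.784 (95% interval 0.741 to 0.829) for Eci2 and 0.790 (95% interval 0.768 to 0.813) for Ech1. Ech1 was below vehicle in all 6 parts, with 0.624 to 0.936, and so was Eci2, with 0.732 to 0.944, while Pex11a was below in 5 of 6. Of the 34 members 10 lay above vehicle and 24 below, with a median of -0.16 against 0.09 over all genes. TMM factors shifted the median of all genes to -0.02 and gave 14 members lower, where 5.87% of all genes were, with 2 above vehicle and 32 below. Relative to all genes the members stood at -0.24 with plain totals and -0.25 with TMM.

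The make-up of the proximal tubule moved with the ruxolitinib library. S1-like cells were 724 of 1760 proximal tubule-like cells under ruxolitinib and 561 of 1798 under vehicle. Parts with more Acsm3 than S1-like cells moved as well. Cluster 3 held 153 cells under ruxolitinib and 292 under vehicle, and S3-like cells were 74 and 59. Slc5a12, an S1 marker, was 1.36 times and Slc7a13, an S3 marker, 0.594 times its vehicle level. With equal weight to each part Pex11a, Eci2 and Ech1 all came short of the limit, at -0.31, -0.27 and -0.30 on the log2 scale. Acaa2 was then the 1 member of 34 counted as lower, where 2.12% of all genes were, and the median was -0.09. Macrophage markers, of which the list summed to 298 CPM under ruxolitinib and 101 CPM under vehicle in these cells, and erythroid markers, with 494 and 74.7 CPM, were also higher. Their part in the result was not tested.

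Panobinostat and givinostat are set side by side without a comparison, since their doses differ. Acsm3 was above vehicle in both libraries, at ratios of 1.36 and 1.45, and Acsm1 in both, at 1.30 and 1.16. Acaa2 was at 1.18 with panobinostat and 0.620 with givinostat, and Acat1 at 1.33 and 1.04. Eci1 was at 1.02 and 0.658. Pex11a and Slc25a20 were below vehicle with each of the 3 drugs, between 0.763 and 0.832 for Pex11a and between 0.769 and 0.828 for Slc25a20.

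**Figure D5:**
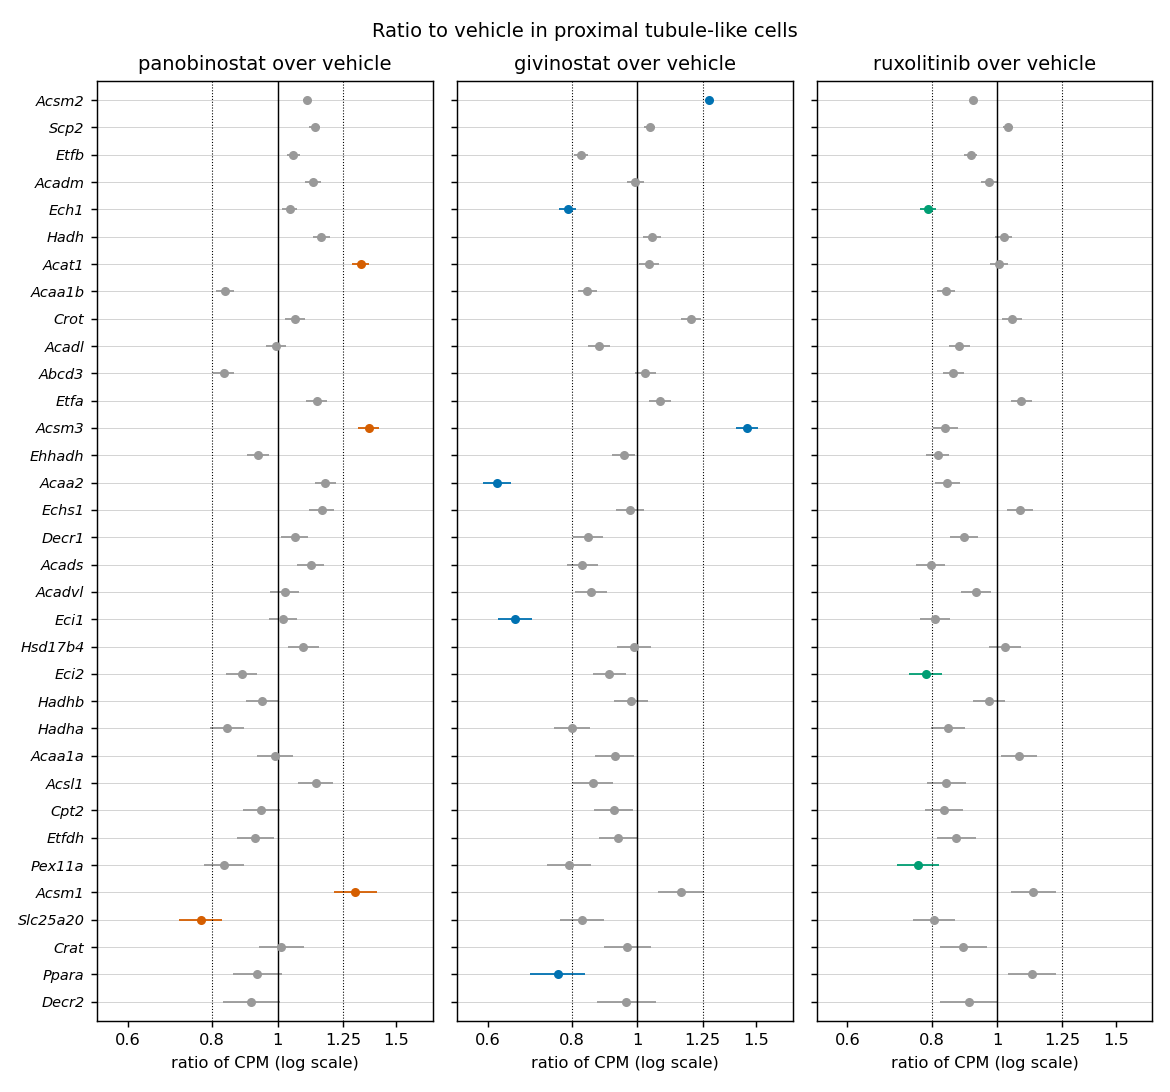
Ratio of each drug library to vehicle (log scale) in proximal tubule-like cells for the 34 genes, 1 panel per drug, with 95% intervals for counting error; dotted lines mark a log2 ratio of 0.32 in either direction, and coloured points are past it on log2(CPM + 5). The lowest point is Acaa2 with givinostat at 0.620 and the highest is Acsm3 with givinostat at 1.45.

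The order of the libraries had a pattern of its own. For 13 of 34 members (38.2%), among them Acaa2, Eci1, Ech1, Acads, Acadl and Etfb, givinostat and ruxolitinib both lay below panobinostat and vehicle, where 16.3% of the 8073 genes tested did. No member showed the opposite order, where 41.6% of all genes did. Vehicle was the highest of the 4 libraries for 11 members (32.4%, against 11.6% of genes) and the lowest for 6 (17.6%, against 29.5%). The libraries also fell into these pairs for 2 transcripts outside the pathway, chosen after their values were seen: Tpm3-rs7 had 1.90, 16.8 and 23.3 CPM in the panobinostat, givinostat and ruxolitinib libraries and 1.62 CPM in the vehicle library, and Gm10036 had 15.3, 2.90 and 3.95 CPM against 15.1 CPM. Median UMIs per kept cell were split the same way, at 6568 and 7957 in the panobinostat and vehicle libraries, against 10020 and 8370 in the givinostat and ruxolitinib libraries. The part of this depth in the order was not tested. A difference between these pairs in how libraries were made and a difference between treatments cannot be told apart.

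Genes known as PPAR-alpha targets in mouse liver lay further below vehicle than the oxidation enzymes themselves. Of 16 such genes in the matrix 13 had at least 10 CPM in proximal tubule-like cells. With panobinostat 7 were lower by that limit and 1 higher, with givinostat 8 and 1, and with ruxolitinib 8 and 0, against the shares of all genes given above; the medians were -0.38, -0.49 and -0.60 on the log2 scale. Pdk4, the kinase that turns off pyruvate dehydrogenase when fat is burned, had 215, 297 and 204 CPM in the panobinostat, givinostat and ruxolitinib libraries, against 331 CPM in the vehicle library. Txnip, a regulator of redox state and glucose uptake, had 318, 375 and 386 CPM under the 3 drugs in the same order, against 587 CPM under vehicle. Vehicle was the highest library for both. The omega-hydroxylases Cyp4a10 and Cyp4a31, which start the oxidation of a fatty acid from its far end, are in the list too. Cyp4a10 had 194, 179.7 and 161 CPM in the panobinostat, givinostat and ruxolitinib libraries, against 254 CPM in the vehicle library, and Cyp4a31 had 191, 227 and 183 CPM under the 3 drugs in the same order, against 238 CPM under vehicle. Vehicle was again the highest. Lpl, the lipase of circulating lipoproteins, was named after its values were seen, because it lay above vehicle: it had 306, 176 and 145 CPM in the panobinostat, givinostat and ruxolitinib libraries, against 129 CPM in the vehicle library, ratios of 2.38, 1.37 and 1.13.

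The part with stress genes, which Pdk4 and Angptl4 helped to define, held 419, 249 and 321 cells in the panobinostat, givinostat and ruxolitinib libraries and 472 in the vehicle library, so cell numbers moved with these genes too. Inside the single parts the median of the target list was nearer to 0 but still below it in 5 of them, at -0.31 to -0.09 with panobinostat, -0.40 to -0.21 with givinostat and -0.47 to -0.07 with ruxolitinib. In S3-like cells it was 0.20 with panobinostat and 0.05 with ruxolitinib.

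The rest of the pathway stayed closer to vehicle. The counts that follow, here and in the next paragraph, are for panobinostat, givinostat and ruxolitinib in that order. Over all genes tested 1.90%, 6.97% and 9.89% were higher and 3.48%, 3.28% and 2.30% lower. The lists are short, so single genes weigh much in these counts. Of 12 other genes of carnitine and acyl-CoA entry 0, 2 and 0 were higher and 1, 1 and 0 lower. Dbi, which binds acyl-CoA in the cytosol, had 2835, 2125 and 2409 CPM in the panobinostat, givinostat and ruxolitinib libraries, against 2718 CPM in the vehicle library, and the carnitine transporter Slc22a5 had 68.5, 105 and 98.5 CPM under the 3 drugs in the same order, against 79.8 CPM under vehicle. Of 15 other acyl-CoA dehydrogenases and branched-chain enzymes 0, 0 and 1 were higher and 0, 0 and 0 lower. Among 22 further peroxisomal genes 2, 3 and 1 were higher and 1, 0 and 1 lower. Nudt19, a peroxisomal hydrolase of coenzyme A, had 781, 899 and 728 CPM in the panobinostat, givinostat and ruxolitinib libraries, against 1039 CPM in the vehicle library, Phyh, which starts the oxidation of phytanic acid, had 499.5, 433 and 451 CPM under the 3 drugs in the same order, against 395 CPM under vehicle, and Amacr, the racemase of branched chains, had 381, 315 and 249 CPM under the 3 drugs in the same order, against 294 CPM under vehicle.

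Acyl-CoA thioesterases, which cut coenzyme A off again, leaned below vehicle with givinostat and ruxolitinib, with medians of -0.25 and -0.28. With panobinostat their median was -0.05. Of 7 genes 0, 0 and 0 were higher and 2, 3 and 2 lower. Acot2, the mitochondrial form, had 67.3, 61.1 and 53.0 CPM in the panobinostat, givinostat and ruxolitinib libraries, against 92.1 CPM in the vehicle library, and Acot1 had 96.8, 94.9 and 70.6 CPM under the 3 drugs in the same order, against 114 CPM under vehicle; Acot1 and Acot2 are close paralogues whose tags may not be fully separated. Of 6 ketone body enzymes 0, 0 and 1 were higher and 1, 1 and 1 lower, where Aacs, which activates acetoacetate, had 68.2, 68.7 and 91.2 CPM under the 3 drugs in the same order, against 63.9 CPM under vehicle. Among 14 partners and coregulators of PPAR-alpha 0, 0 and 1 were higher and 1, 0 and 0 lower, and Lpin1, a coactivator and phosphatase of lipids, had 63.8, 78.8 and 86.1 CPM under the 3 drugs in the same order, against 86.7 CPM under vehicle. Of the list for malonyl-CoA and fatty acid synthesis, of which 3, 5 and 4 of 7 genes reached 10 CPM, 0, 0 and 1 were higher and 0, 0 and 0 lower.

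In loop of Henle-like cells, 147, 165 and 268 in the panobinostat, givinostat and ruxolitinib libraries and 230 in the vehicle library, the members leaned below vehicle with givinostat and ruxolitinib. With givinostat 0 of 33 members with at least 10 CPM were higher and 12 lower, where 16.0% of all genes were higher and 10.8% lower. With ruxolitinib 0 of 33 were higher and 9 lower, against 17.8% and 9.10%, and with panobinostat 4 of 34 higher and 1 lower, against 15.5% and 9.79%. The medians were -0.01, -0.20 and -0.18 with panobinostat, givinostat and ruxolitinib. Free tubule RNA in this class was also lower with givinostat and ruxolitinib. Its highest gene stood at 16.0%, 3.71% and 5.66% of the proximal tubule level with panobinostat, givinostat and ruxolitinib, against 11.1% under vehicle. Acsm2, at background in every library, is among the members counted as lower with givinostat and ruxolitinib. The part of free RNA in these counts and medians was not tested. The levels highest in this class were those of Acadl, with 373, 338 and 385 CPM in the panobinostat, givinostat and ruxolitinib libraries, against 315 CPM in the vehicle library, of Etfb, with 334 CPM in the panobinostat library, 276 CPM in the givinostat library and 320.2 CPM in the ruxolitinib library, against 367 CPM in vehicle, and of Acat1, with 310.5 CPM under panobinostat, 267 CPM under givinostat, 274 CPM under ruxolitinib and 309 CPM under vehicle.

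Among members at 50 CPM or more, Acsm2 had the lowest ratios in the loop, 0.373 (95% interval 0.317 to 0.438) with givinostat and 0.403 (95% interval 0.347 to 0.467) with ruxolitinib. Among the same members it had the highest with panobinostat, 1.55 (95% interval 1.36 to 1.75). The free tubule RNA in these libraries moved the same way. The members that follow were above that background, which was not subtracted from their levels. Eci1 had 62.2 CPM under givinostat and 90.0 CPM under vehicle, a ratio of 0.691 (95% interval 0.561 to 0.851). Etfb was at 0.752 (95% interval 0.681 to 0.830) with givinostat. With ruxolitinib Acads had 72.6 CPM under ruxolitinib and 102 CPM under vehicle, a ratio of 0.714 (95% interval 0.593 to 0.859), and Etfdh was at 0.764 (95% interval 0.612 to 0.953). Acadl, by contrast, was at 1.22 (95% interval 1.12 to 1.34) with ruxolitinib and 1.07 (95% interval 0.975 to 1.18) with givinostat, while Etfa was at 1.07 and 1.02 with givinostat and ruxolitinib, Eci2 at 1.10 with ruxolitinib and Crot at 0.991 with givinostat. With panobinostat Decr1 was at 1.34, Acsl1 at 1.248, Etfdh at 0.741, Acadvl at 0.809 and Acaa2 at 0.844.

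Collecting duct-like cells, which here include connecting tubule, had median log2 ratios of 0.10, -0.11 and 0.04 with panobinostat, givinostat and ruxolitinib over the 32 or 33 members at 10 CPM or more. Etfb, Scp2 and Acat1 had the highest levels, at means of 284, 281 and 265 CPM over the libraries. Acads was below vehicle with givinostat, at 0.759 (95% interval 0.622 to 0.921), and with ruxolitinib, at 0.691 (95% interval 0.567 to 0.840). With panobinostat the highest ratios among members at 50 CPM or more were those of Acsm2, 2.19, Acaa1b, 1.80, which are both at background, and Acsl1, 1.65. Among members at 50 CPM or more, Acadl and Etfa were highest with givinostat, at 1.24 and 1.23. Cells that a finer clustering set apart as distal convoluted tubule-like, 92, 56, 69 and 83 in the panobinostat, givinostat, ruxolitinib and vehicle libraries, had mean levels of 232 CPM for Hadhb, 162 CPM for Hadha and 259.7 CPM for Echs1, where proximal tubule-like cells had 115, 102 and 181 CPM.

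T-like cells held little free tubule RNA, whose median was 4.10%, 4.01% and 3.01% of the proximal tubule level in the panobinostat, givinostat and ruxolitinib libraries and 3.13% in the vehicle library. The members' median was 17.3%, 20.9% and 20.9%, against 18.9% in the vehicle library. In every library Acaa1b and Acsm2 were not above the highest gene of the free RNA list, and Acsm1, Acsm3, Ppara, Ehhadh and Pex11a were not in some. Scp2 led T-like cells with 231, 232 and 234 CPM in the panobinostat, givinostat and ruxolitinib libraries, against 225 CPM in the vehicle library, followed by Ech1 with 114 CPM under panobinostat, 111 CPM under givinostat, 127 CPM under ruxolitinib and 124 CPM under vehicle and Etfb with 120.1 CPM under panobinostat, 95.7 CPM under givinostat, 116 CPM under ruxolitinib and 100.4 CPM under vehicle. Hadha and Hadhb averaged 80.0 and 83.3 CPM, near their proximal tubule levels of 102 and 115 CPM.

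In T-like cells with panobinostat 3 members of 29 were higher and 3 lower, against 11.9% and 12.4% of all genes; with givinostat 6 of 28 were higher and 2 lower, against 15.0% and 5.03%; and with ruxolitinib 3 of 28 higher and 1 lower, against 14.5% and 5.65%. Medians were 0.10, 0.08 and 0.06. Crot had 87.0 CPM under givinostat and 66.4 CPM under vehicle, a ratio of 1.31 (95% interval 1.12 to 1.54). Acadl had 56.0 CPM under givinostat and 42.3 CPM under vehicle, a ratio of 1.32 (95% interval 1.08 to 1.62), and was at 1.28 (95% interval 1.01 to 1.63) with ruxolitinib. Acsm2 was at 1.47, 1.48 and 0.861 with panobinostat, givinostat and ruxolitinib, within the background. Acads and Hsd17b4, under 50 CPM and so outside the naming rule, were named after their values were seen: with ruxolitinib Acads had 30.3 CPM under ruxolitinib and 46.5 CPM under vehicle, a ratio of 0.653 (95% interval 0.492 to 0.861), and Hsd17b4 had 28.1 CPM under ruxolitinib and 19.1 CPM under vehicle, a ratio of 1.47 (95% interval 1.04 to 2.09). The remaining members that the naming rule gives for T-like cells had ratios between 0.875 (Echs1 with panobinostat) and 1.24 (Acadm with ruxolitinib).

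In dendritic-like cells most members were above vehicle with panobinostat, and free tubule RNA was higher there too. With panobinostat 26 of 33 members were higher and 1 lower, where 20.1% of all genes were higher and 10.4% lower, and the median was 0.63. With givinostat 8 of 31 were higher and 1 lower (16.8% and 8.05% of genes, median 0.04), and with ruxolitinib 12 of 31 higher and 0 lower (18.3% and 7.55%, median 0.23). The free RNA median in these cells was 18.7%, 6.98% and 10.4% of the proximal tubule level under panobinostat, givinostat and ruxolitinib and 6.26% under vehicle. Its part in the counts was not tested. Among members at 50 CPM or more in either library, the highest ratios with panobinostat were those of Acsm3, 4.74 (95% interval 3.27 to 7.04), Acaa1b, 3.92 (95% interval 2.83 to 5.51), and Acsm2, 3.33 (95% interval 2.98 to 3.71), all 3 at background. Below that level Ppara was at 11.1 (95% interval 3.42 to 56.9), with 11.5 and 1.04 CPM under panobinostat and vehicle. Ehhadh, also below it, was at 3.56 (95% interval 2.43 to 5.31). The vehicle levels of Ppara and Ehhadh were not above the free tubule RNA.

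Slc25a20 differed from the other members. Its level in dendritic-like cells was close to that in the proximal tubule, a mean of 62.4 CPM where proximal tubule-like cells had 65.4 CPM, and no other member came as close in these cells. By library it had 46.3, 66.1 and 67.2 CPM in the panobinostat, givinostat and ruxolitinib libraries, against 70.1 CPM in the vehicle library, a ratio of 0.660 (95% interval 0.520 to 0.835) with panobinostat. Among members at 50 CPM or more in either library, Crot was the highest with givinostat, with 61.2 CPM under givinostat and 24.5 CPM under vehicle, a ratio of 2.49 (95% interval 1.90 to 3.31). With ruxolitinib Hadh was the highest of them, with 62.0 CPM under ruxolitinib and 39.4 CPM under vehicle, a ratio of 1.58 (95% interval 1.253 to 1.99). Members from 10 to 50 CPM lay above Hadh with ruxolitinib, namely Acaa1b at 2.78, Acsm1 at 2.49, Ehhadh at 1.79 and Crot at 1.66. The vehicle levels of Crot, Hadh, Acaa1b, Acsm1 and Ehhadh in these cells were not above the free tubule RNA. Scp2, Acsm2 and Ech1 had the highest levels in dendritic-like cells, with means of 288, 281 and 166 CPM, of which that of Acsm2 is background. Other members that the naming rule gives ranged from 0.827 (Acadl with givinostat) to 1.52 (Acsm2 with givinostat), among them Echs1 at 1.47 with ruxolitinib and Acadm at 1.37 with givinostat.

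Macrophage-like and monocyte-like cells held more free tubule RNA than T-like cells, 19.3%, 13.0% and 15.3% of the proximal tubule level under panobinostat, givinostat and ruxolitinib and 12.8% under vehicle in macrophage-like cells. In them 7 to 19 members per library were not above the highest free RNA gene. Acaa2 had 110.3 CPM under panobinostat and 52.0 CPM under vehicle, a ratio of 2.12 (95% interval 1.46 to 3.09), and Acadl had 41.6 CPM under givinostat and 82.8 CPM under vehicle, a ratio of 0.502 (95% interval 0.356 to 0.707), where the givinostat value was not above the background. In monocyte-like cells Acaa1b was at 0.420, 0.417 and 0.255 with panobinostat, givinostat and ruxolitinib, but not above the background in any library. Etfb in the same cells was at 0.587 (95% interval 0.498 to 0.694) with givinostat and Acat1 at 0.569 (95% interval 0.438 to 0.739) with ruxolitinib. Levels were led by Acsm2 and Scp2 in both classes, of which Acsm2 was not above the background in any library.

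The tags of Acaa1a and Acaa1b, whose transcripts are 91.5% identical over the shorter one, matched at 72.7% of their last 300 bases, where 3′ tags fall. For the Acsm genes the figure was 55.7% to 60.7%. How many tags were left out because they matched more than one copy was not analysed here, so levels of these 5 genes carry that uncertainty. Acaa1a and Acaa1b were ordered differently across cells: Acaa1b was the higher in proximal tubule-like cells, with a mean of 368 CPM against 93.6 CPM, and Acaa1a the higher in T-like cells, with 41.9 against 12.6 CPM.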

How the data were processed

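The deposited matrix holds raw UMI counts per gene and cell, which the authors made with Cell Ranger 3.0.1 and build mm10, per the submitters' processing notes. Single-cell 3′ libraries were made with the 10x Chromium system, per the labels' protocols. No normalization had been applied. Each barcode carries a library name: 3 match a drug, and the remaining one was taken as vehicle. The highest mitochondrial share was 39.96% to 39.98% per library; whether the authors filtered on it is not given in the sources used here.

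Barcodes needed at least 200 genes, 500 UMIs and a mitochondrial share under 50%; 226 of 16003 failed. Clustering used 2000 variable genes without members, 30 principal components, 15 neighbours and Leiden resolution 1.0 (Python 3.11.15, scanpy 1.11.5, leidenalg 0.10.2, numpy 2.4.6, scipy 1.17.1). Clusters were named "X-like" from fixed markers, with thresholds set after the data were seen; 885 cells stayed unnamed. Scrublet called 0.0682%, 2.30%, 0.302% and 0.0254% of cells doublets in the panobinostat, givinostat, ruxolitinib and vehicle libraries. So few calls in most libraries mean that it did not work as a filter, and doublets were kept.

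Counts were summed per library and class with at least 50 cells and scaled to CPM. Levels carry exact Poisson and ratios exact conditional binomial 95% intervals. Only the ratio intervals were run on simulated data. Those data were Poisson counts without spread between cells, so the run checks the calculation and not the coverage in these data. Log2 ratios use a pseudocount of 5 CPM, genes with at least 10 CPM in either library and a log2 limit of 0.32. With 1 library per group there is no test. Free tubule RNA was read from 12 genes, of which Napsa was left out after its values were seen, since leukocytes also express it. The CG limit of 6 and the AGGNCA search were chosen after the data were seen. Protein sequences were not used here.

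The members and all lists were chosen with earlier results of these data known. Values per library are given for the 10 members highest in proximal tubule-like cells and the 6 highest and 6 lowest ratios of each drug; in other classes for the 3 highest levels and the 3 highest and lowest ratios per drug at 50 CPM or more, in part as ranges; and in other lists for at most 4 genes past that limit. Alternatives tried were tighter limits on cells (500 genes, 1000 UMIs, 20% mitochondrial), resolutions of 0.5 and 1.5, members kept among the variable genes, Scrublet doublets left out, TMM (edgeR 4.0.16) and DESeq2 1.42.0 size factors in R 4.3.3, totals without mitochondrial genes, mean CPM per cell, equal weight to each part, pseudocounts of 1 and 20, other member filters and a fold of 1.5.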

Additional observations from a re-analysis of the deposited data

Results flagged for a closer look

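The results below were set apart because 1 member lay above vehicle in 1 class and below it in another, each past a log2 ratio of 0.32 in size, with counting intervals on opposite sides of 1. There is 1 library per group, so the difference between classes was not tested. Each ratio to vehicle is followed by the drug and vehicle levels.

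With panobinostat, Acaa1b was at 3.92 (66.3 and 16.9 CPM) in dendritic-like and 0.420 (37.2 and 88.6 CPM) in monocyte-like cells. Neither class was above the free tubule RNA for this gene, whose median was 18.7% of the proximal tubule level under panobinostat and 6.26% under vehicle in dendritic-like cells, and 13.5% and 12.7% in monocyte-like cells.

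Acadl, the long-chain dehydrogenase, was above vehicle in T-like cells, at 1.32 (56.0 and 42.3 CPM) with givinostat and 1.28 (54.2 and 42.3 CPM) with ruxolitinib. It was below vehicle at 0.502 (41.6 and 82.8 CPM) in macrophage-like cells with givinostat and at 0.742 (54.5 and 73.5 CPM) in monocyte-like cells with ruxolitinib.

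Acat1 with ruxolitinib was at 1.26 (557 and 440.1 CPM) in proximal tubule cluster 2 and 0.569 (59.5 and 105 CPM) in monocyte-like cells. Etfb with ruxolitinib was at 1.37 (175 and 128 CPM) in dendritic-like and 0.606 (121 and 200.2 CPM) in monocyte-like cells. Free tubule RNA in monocyte-like cells had a median of 7.34% under ruxolitinib and 12.7% under vehicle, and in dendritic-like cells 10.4% and 6.26%; its part in these ratios was not tested.

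Acsm2 was at 2.25 (72.5 and 32.2 CPM) in intercalated-like and 0.373 (82.9 and 222 CPM) in loop of Henle-like cells with givinostat. With ruxolitinib it was at 2.94 (94.7 and 32.2 CPM) and 0.403 (89.6 and 222 CPM). The free tubule RNA median moved the same way: it was 2.44%, 4.52% and 1.53% under givinostat, ruxolitinib and vehicle in intercalated-like cells, and 2.91%, 3.54% and 7.45% in loop of Henle-like cells.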

How the results depend on the processing

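No ratio of a member to vehicle past a log2 ratio of 0.32 in size changed sign in proximal tubule-like cells under the alternatives run. Of the member ratios recomputed, 1057 moved by less than the main counting interval and 167 by more. Kept past that limit in 12 of 12 alternatives were Acat1 (0.39 to 0.44 on the log2 scale) and Acsm3 (0.42 to 0.49) with panobinostat, and Acaa2 (-0.76 to -0.62), Eci1 (-0.67 to -0.52), Ech1 (-0.43 to -0.33) and Acsm3 (0.44 to 0.59) with givinostat. TMM and DESeq2 factors moved the givinostat median to -0.19 and -0.19, with 11 members lower and 1 higher under each (DESeq2: 6.84% and 2.87% of all genes), and the ruxolitinib median to -0.27 and -0.26, with 14 lower under each (DESeq2: 5.43% of all genes). The stricter cell filter moved the panobinostat median to 0.11. The 1 member lower with panobinostat became 0 with equal weight to each part, a pseudocount of 20 CPM or a fold of 1.5. The count of 3 lower with ruxolitinib was 1 with equal weight, which was Acaa2 and none of the 3, 1 with a pseudocount of 20 CPM, which was Ech1, and 0 at 1.5-fold. At 1.5-fold 0 members were higher with panobinostat or givinostat and 1 was lower with givinostat. Acsm1 (panobinostat) and Ppara (givinostat) fell short of the limit with a pseudocount of 20 CPM, as did Slc25a20 (panobinostat), Eci2 and Pex11a (ruxolitinib) with that or equal weight, Ech1 (ruxolitinib) with equal weight or the stricter filter, Pex11a with the stricter filter, and Acsm2 (givinostat) with TMM or DESeq2 factors. The cause was not tested except where fewer cells or a larger pseudocount or fold set it. No paired analysis was possible because each group has 1 library, and no library could be left out for the same reason. Depth limits the leukocyte and loop of Henle values more than the proximal tubule ones: loop of Henle-like sums held 1294869 to 2891871 UMIs per library, proximal tubule-like sums 18628128 to 23137901.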
